A study of Mus musculus with 4 samples.

Results

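The genes described here carry cells from G2 into mitosis and through cell division. They are 42 mouse genes listed by function, from the kinases that start mitosis to the condensins that compact chromosomes, and their probes were found by the gene symbol of the array platform. Of the 42, 36 had at least 1 probe, 51 probes in all, out of 16593 genes and 25697 probes on the array. Of these 36, 24 were measured above background and 12 were not, while 6 had no probe among those annotated (Ccnb1, Aurkb, Tacc3, Racgap1, Mki67 and Smc4).

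RNA of intestinal epithelium from the C57BL/6 strain was hybridised to 4 Illumina bead arrays with 1 label each. The Ifnar1-/- group (2 arrays, titled IFNAR1ko) and the Ifnar1+/+ group (2 arrays, titled WT) are told apart by their titles and genotype labels as differing in Ifnar1, the gene of a subunit of the type I interferon receptor. The breeding description in the labels writes Ifnar1+/+ for both crosses, so every group difference below rests on the titles and genotype labels. All mice of both groups carried a floxed Csnk1a1 and the Vil1-Cre-ERT2 transgene, which is active in epithelial cells of the gut, and received tamoxifen at 120 mg/kg on consecutive days, with cells taken 5 days after the last injection. The genotype labels read Csnk1a1_delta_gut Ifnar1-/- for the first group, and Csnk1a_delta_gut Ifnar1+/+ or Csnk1a1_delta_gut Ifnar1+/+ for the second, so by label the arrays titled WT also lack Csnk1a1 in the gut epithelium. Csnk1a1 encodes casein kinase 1 alpha, which marks beta-catenin for destruction, and no group with intact Csnk1a1 was analysed here. No source used here gives the age at collection. Whether the 2 samples of a group are separate animals is not stated either, so the p-values here reflect sample-to-sample spread alone, and that spread may be technical.

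The probes for Ifnar1 and Csnk1a1 were not above background on any array (detection p of at least 0.244), so neither checks the labels. Colon is the tissue label, but the protocol describes small intestine (its middle part). Of the colon markers listed, Aqp8, Hoxd10 and Slc26a3 were not detected on any array and Car4 was, while the small intestinal markers Sis and Fabp6 were detected on all 4, Gata4 on 1 and Slc10a2 on none. The log2 differences (Ifnar1-/- minus Ifnar1+/+) were -1.72 ± 0.26 for Fabp6, -0.79 ± 0.27 for Sis and -1.35 ± 0.61 for Car4 (SE). None had a limma adjusted p under 0.05, and whether the sampled region differed between the groups was not tested. All 7 listed epithelial markers with a probe were measured, 6 with a lower mean in the Ifnar1-/- group (53.0% of all genes had a higher mean). Krt20 and Vil1 lay lower on both Ifnar1-/- arrays, Krt18 lay higher on both (0.67 ± 0.22, SE), and Cldn7, Krt19, Krt8 and Cdh1 overlapped between the groups. The Ifnar1-/- arrays differed from each other by over 1 log2 unit in 7.38% of 8442 genes, against 1.69% for the Ifnar1+/+ arrays.

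As background, a cell enters mitosis when cyclin-bound Cdk1 becomes active. Aurora and Polo-like kinases then build the spindle, a checkpoint holds the anaphase-promoting complex until every chromosome is attached, and the central spindle directs cytokinesis. In the small intestine these events take place in the crypts, where transit-amplifying cells divide before they migrate onto the villus and stop. The RNAs of these genes peak in G2 and M, because a complex built on the MuvB proteins, with B-Myb and then FoxM1, switches their promoters on, and with other partners keeps them off in resting cells. That complex recognises a short element called the CHR, and the nearby CCAAT boxes are bound by NF-Y.

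The RefSeq promoter windows (GRCm38.p6, 250 bases before to 50 bases after the gene start) of 34 of the 42 members were read for these elements. The windows of 5 measured members are shown, because they hold both elements in different arrangements or none: Cdk1 (chr10:69352863-69353162, minus strand), Plk1 (chr7:122159185-122159484, plus strand), Ncapd2 (chr6:125191537-125191836, minus strand), Cdca3 (chr6:124829926-124830225, plus strand) and Nusap1 (chr2:119618048-119618347, plus strand). Each is written 5′ to 3′ on the strand of its gene, and capitals mark the CHR letters TTTGAA and the CCAAT letters on either strand (CCAAT read on the opposite strand appears as ATTGG).
Cdk1: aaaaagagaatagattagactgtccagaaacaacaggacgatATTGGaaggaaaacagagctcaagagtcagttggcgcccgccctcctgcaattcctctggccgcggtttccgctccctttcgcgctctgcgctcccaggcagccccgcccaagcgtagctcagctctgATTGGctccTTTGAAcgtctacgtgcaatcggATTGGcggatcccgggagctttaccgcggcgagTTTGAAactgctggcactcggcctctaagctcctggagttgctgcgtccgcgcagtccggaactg
Plk1: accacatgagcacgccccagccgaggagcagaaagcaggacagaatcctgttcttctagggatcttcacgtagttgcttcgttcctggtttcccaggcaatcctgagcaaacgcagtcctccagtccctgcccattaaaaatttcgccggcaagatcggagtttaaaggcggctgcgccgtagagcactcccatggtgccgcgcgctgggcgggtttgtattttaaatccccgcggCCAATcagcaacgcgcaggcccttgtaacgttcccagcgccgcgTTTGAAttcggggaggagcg
Ncapd2: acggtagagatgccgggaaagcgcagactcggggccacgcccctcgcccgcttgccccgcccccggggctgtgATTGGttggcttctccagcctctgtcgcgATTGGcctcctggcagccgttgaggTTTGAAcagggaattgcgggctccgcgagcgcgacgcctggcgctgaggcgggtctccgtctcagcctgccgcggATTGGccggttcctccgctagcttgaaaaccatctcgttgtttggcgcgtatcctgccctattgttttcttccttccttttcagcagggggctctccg
Cdca3: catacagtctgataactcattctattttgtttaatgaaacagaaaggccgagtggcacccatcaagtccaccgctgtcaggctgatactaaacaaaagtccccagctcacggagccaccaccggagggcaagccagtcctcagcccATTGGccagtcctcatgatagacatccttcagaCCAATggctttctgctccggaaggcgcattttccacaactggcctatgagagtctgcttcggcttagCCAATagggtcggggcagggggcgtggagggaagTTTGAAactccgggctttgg
Nusap1: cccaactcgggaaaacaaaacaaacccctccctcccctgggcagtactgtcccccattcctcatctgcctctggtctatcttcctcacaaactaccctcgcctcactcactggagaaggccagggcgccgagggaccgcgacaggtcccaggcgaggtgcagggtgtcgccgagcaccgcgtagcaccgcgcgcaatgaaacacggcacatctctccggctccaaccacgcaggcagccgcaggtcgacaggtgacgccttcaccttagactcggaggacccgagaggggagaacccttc
Counting the first base of a match from the gene start, Cdk1 held CHR letters at -71 and -15 and CCAAT letters at -208, -80 and -48. Plk1 and Cdca3 held their CHR letters at 31, downstream of CCAAT letters at -14 in Plk1 and at -104, -71 and -4 in Cdca3. Ncapd2 held CHR letters at -123. Nusap1, a microtubule-bundling protein gene, held no match to either, which says only that these letters are not in this window.

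Among all member windows (36 windows of 34 genes), 27 or 75% held TTTGAA on either strand, against 17.9% of all 32851 promoter windows of the same length and 11.8% of those of the genes measured above background. CCAAT letters stood in 29 member windows, or 80.6%, against 37.4% of all windows. Both occurred in 25 member windows, or 69.4%, against 6.95% of all windows; the letters of the 2 motifs overlapped once. Windows of further mitotic genes, a related list used below, held TTTGAA in 31 of 58 (53.4%) and CCAAT in 38 (65.5%). Both stood in 22 of these 58 (37.9%), so the motifs are not particular to the members. Windows of replication genes, which belong to S phase, held TTTGAA in 3 of 26 (11.5%) and CCAAT in 16 of 26 (61.5%). The members without TTTGAA in their window included Nusap1, Ncaph, Mad2l1 and Birc5, whose group differences were 0.40 to 0.80 (log2). The median difference was 0.28 over the 16 measured genes with TTTGAA and 0.43 over the 4 without it, given as a description.

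**Figure D1:**
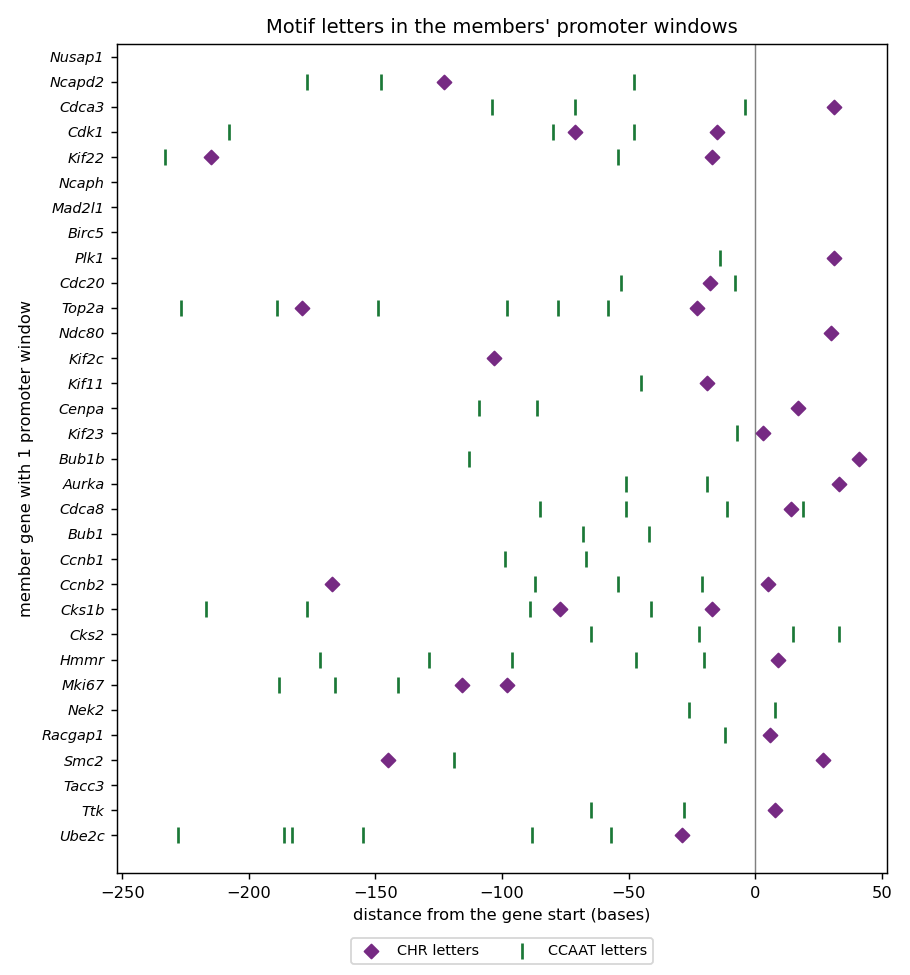
Positions of the CHR and CCAAT letters in the promoter windows of the members with 1 window, in bases from the gene start, with measured genes from the highest group difference at the top and unmeasured genes below. CHR letters (diamonds) lie near the start in most rows, while Nusap1, Ncaph, Mad2l1, Birc5 and Tacc3 hold neither motif.

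The comparison sets epithelium labelled Ifnar1-/- against epithelium labelled Ifnar1+/+, both by label without Csnk1a1. All 24 measured members had a higher mean on the Ifnar1-/- arrays, with a median log2 difference of 0.35, or 1.28-fold; none passed limma's test over all genes (0 of 24 at an adjusted p under 0.05). Over all 8442 genes tested, 53.0% had a higher mean in Ifnar1-/- and the median difference was 0.03. No gene of the array was called in either direction: percent called was 0 for higher and 0 for lower genes, with 4.25% of genes higher and 5.27% lower at an unadjusted p under 0.05 (limma), among which no member stood. In 16 of 24 members, 66.7%, both Ifnar1-/- arrays lay above both Ifnar1+/+ arrays, against 23.9% of all genes, and in none did they lie below, against 19.5%. The members were chosen with earlier results of these data known, so these counts and shares are a description and not a test. Genes that are switched on together are also not separate observations. In a bulk sample, more dividing cells and more RNA per dividing cell cannot be told apart.

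The 2 Ifnar1-/- arrays did not contribute equally. Set against the Ifnar1+/+ mean, the members had a median of 0.49 on Ifnar1-/- array 1 but 0.17 on Ifnar1-/- array 2, while the median over all genes was 0.03 on each. All 24 members were above the Ifnar1+/+ mean on array 1, against 51.9% of all genes, and 19 of 24 on array 2, against 53.1%. Array 1 exceeded array 2 in 21 of 24 members, against 49.3% of all genes. Array 2 by itself lay above both Ifnar1+/+ arrays in 17 of 24 members, 70.8%, against 39.8% of all genes. The Ifnar1-/- arrays were over 0.5 apart in 8 members, 33.3%, against 33.6% of all genes, and the Ifnar1+/+ arrays in 3, 12.5%, against 13.2%. Without array 1 the members' median was 0.17, with 19 higher and 5 lower, and without array 2 it was 0.48. The difference between group means exceeded the gap between the arrays within each group for 10 members, 41.7%, against 15.8% of all genes: Plk1, Aurka, Cdc20, Tpx2, Kif22, Kif2c, Prc1, Ncapd2, Ncaph and Foxm1. The excess was slight for Ncapd2 (0.662 against a gap of 0.657) and Prc1 (0.172 against 0.169). Only the brightest probe of each gene was used here, and the other kept probes of Cdc20, Ncapd2 and Foxm1 did not exceed both gaps.

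**Figure D2:**
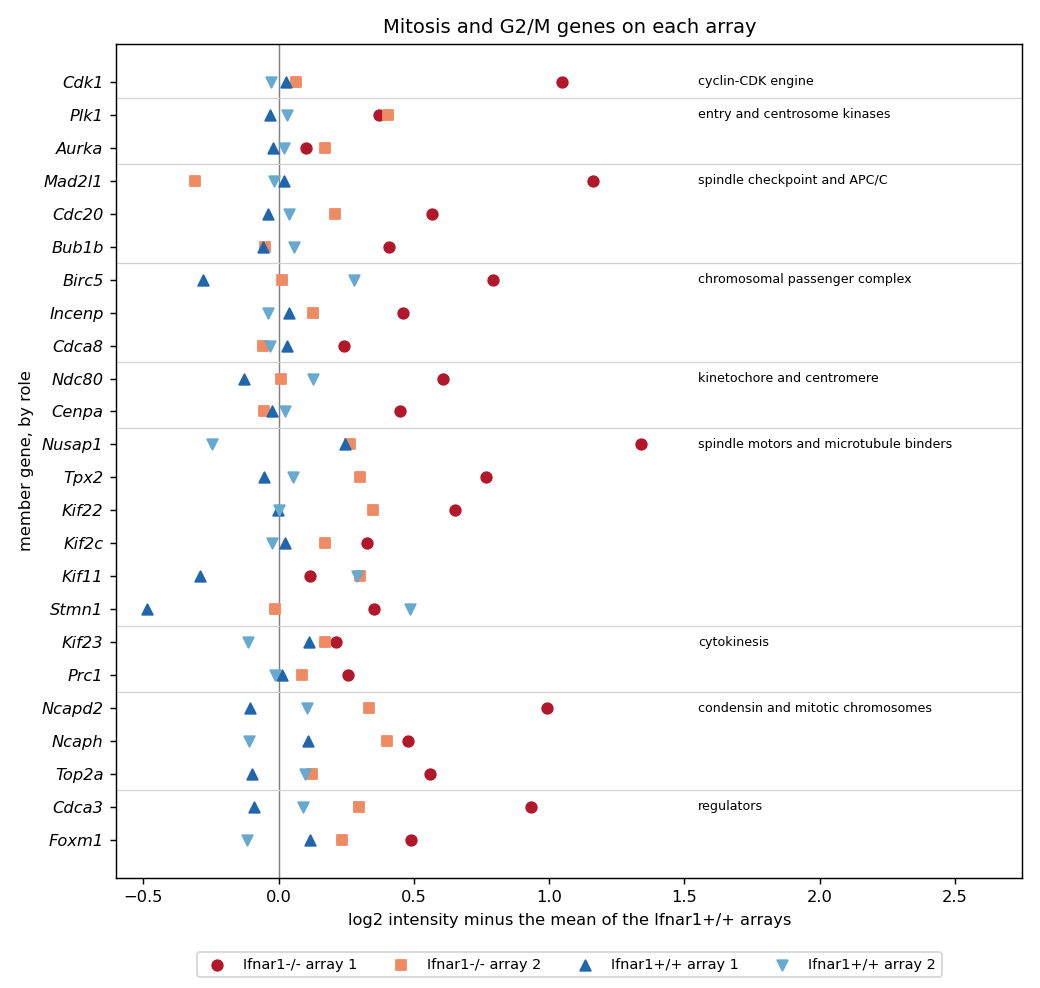
Normalized log2 intensity of each measured member on each array, minus the mean of the Ifnar1+/+ arrays, ordered by role. Ifnar1-/- array 1 lies to the right of zero for all 24 members. Ifnar1-/- array 2 lies just above the Ifnar1+/+ arrays for members such as Cdk1 and between them for Bub1b, Birc5, Ndc80 and Stmn1. It lies below both for Cdca8, Cenpa and, furthest, Mad2l1.

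Among the cyclins, kinase and adaptors that start mitosis, Cdk1 was the only member measured. Its log2 intensity (background-corrected and normalized, the unit of all levels below) was 9.25 and 8.26 on the Ifnar1-/- arrays, against 8.23 and 8.17 on the Ifnar1+/+ arrays. Only Ifnar1-/- array 1 stood clear of the other 3, and array 2 was higher than the Ifnar1+/+ arrays by less than 0.1. The difference was 0.56 ± 0.35 (SE, n = 2 per group; limma adjusted p = 0.62), and 0.06 without Ifnar1-/- array 1. Cyclin A2 (Ccna2), cyclin B2 (Ccnb2) and the Cdk-binding proteins Cks1b and Cks2 gave signals not well above background on every array, and 2 further Cdk1 probes did as well. The main mitotic cyclin, Ccnb1, had no probe, so the cyclin partners of Cdk1 were not measured here.

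Both measured kinases of mitotic entry and the centrosome were separated between the groups, each by less than 0.5. Plk1, the Polo-like kinase that matures centrosomes and helps activate Cdk1, stood at 10.74 and 10.77 on the Ifnar1-/- arrays, against 10.34 and 10.40 on the Ifnar1+/+ arrays. The groups did not overlap, and the arrays of each group lay within 0.1 of each other. The difference was 0.39 ± 0.22 (SE, 1.31-fold; limma adjusted p = 0.59), with 0.40 when Ifnar1-/- array 1 was left out and 0.38 when array 2 was. Aurka, the Aurora kinase of centrosomes and spindle poles, had 9.70 and 9.77 on the Ifnar1-/- arrays, compared with 9.58 and 9.62 on those of Ifnar1+/+. These levels did not overlap either, but the difference of 0.14 ± 0.22 (SE) was among the 3 lowest of the members. Nek2, a kinase that separates centrosomes, was not well above background on any array.

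Of the checkpoint and anaphase-promoting complex genes, Mad2l1 differed most between the Ifnar1-/- arrays. Mad2l1, which encodes the checkpoint protein Mad2 that holds Cdc20 inactive, had 10.20 and 8.73 on the Ifnar1-/- arrays, against 9.05 and 9.02 on the Ifnar1+/+ arrays. Ifnar1-/- array 1 was the highest of the 4 and array 2 the lowest, so the groups overlapped. Its difference was 0.43 ± 0.46 (SE), and it turned to -0.30 without array 1 and was 1.15 without array 2 (limma adjusted p = 0.0736, the smallest of any member under any alternative). Cdc20, the activator that directs the anaphase-promoting complex to cyclin B, had 10.92 and 10.56 in the Ifnar1-/- group, next to 10.32 and 10.39 in the Ifnar1+/+ group. It did not overlap at this probe, with a difference of 0.39 ± 0.24 (SE), whereas its other 3 kept probes differed by 0.00 to 0.20. Bub1b, the checkpoint protein BubR1, had 7.28 and 6.82 on the Ifnar1-/- arrays, against 6.81 and 6.92 on the Ifnar1+/+ arrays, and overlapped; its difference of 0.18 was -0.051 without Ifnar1-/- array 1. The kinases Bub1 and Ttk, which recruit checkpoint proteins to kinetochores, and Ube2c, the ubiquitin-conjugating enzyme of the anaphase-promoting complex, were not well above background.

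The chromosomal passenger complex corrects wrong attachments and later acts in cytokinesis. Its scaffold gene Incenp had 9.31 and 8.97 on the Ifnar1-/- arrays, against 8.88 and 8.81 on the Ifnar1+/+ arrays, without overlap (difference 0.29 ± 0.24, SE). Birc5, which encodes survivin, had 10.54 and 9.76 on the Ifnar1-/- arrays, compared with 9.47 and 10.02 on those of Ifnar1+/+, so the groups overlapped and the arrays within each differed by more than 0.5. Its 3 kept probes differed by 0.09 to 0.40, all higher in the Ifnar1-/- group. Cdca8, which encodes borealin, had 8.29 and 7.99 in the Ifnar1-/- group, next to 8.08 and 8.02 in the Ifnar1+/+ group, the lowest difference of the 24 (0.09 ± 0.23, SE), and it was -0.061 without Ifnar1-/- array 1. Aurkb, the kinase of the complex, had no probe.

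Both genes of the centromere and kinetochore overlapped between the groups. Cenpa, the histone H3 variant that marks centromeres, had 12.42 and 11.92 on the Ifnar1-/- arrays, against 11.95 and 11.99 on the Ifnar1+/+ arrays. Ndc80, the outer kinetochore protein that grips microtubules, had 7.61 and 7.01 on the Ifnar1-/- arrays, against 6.87 and 7.13 on the Ifnar1+/+ arrays. In both, Ifnar1-/- array 1 was the highest of the 4, whereas array 2 lay between the Ifnar1+/+ values for Ndc80 and below both for Cenpa. The difference of Cenpa was 0.20 ± 0.26 (SE) and that of Ndc80 was 0.31 ± 0.28, while without Ifnar1-/- array 1 that of Cenpa was -0.055.

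The spindle genes held the member with the highest difference. Nusap1, whose promoter window is printed above, had 9.14 and 8.06 on the Ifnar1-/- arrays, against 8.04 and 7.55 on the Ifnar1+/+ arrays. Its groups were separated by a gap of only 0.02, since Ifnar1-/- array 2 and Ifnar1+/+ array 1 nearly met. The difference was 0.80 ± 0.39 (SE, 1.74-fold; limma adjusted p = 0.55), and 0.27 without Ifnar1-/- array 1. Kif22, a chromokinesin that pushes chromosome arms towards the spindle equator, had 10.76 and 10.46 on the Ifnar1-/- arrays and 10.11 on both Ifnar1+/+ arrays. Tpx2, which activates Aurora A and seeds spindle microtubules, had 6.75 and 6.29 on the Ifnar1-/- arrays, compared with 5.93 and 6.04 on those of Ifnar1+/+. Both genes were without overlap, differing by 0.50 ± 0.23 and 0.53 ± 0.26 (SE), and by 0.35 and 0.30 without Ifnar1-/- array 1. Kif2c, a kinesin that depolymerises microtubules at centromeres, differed by 0.25 ± 0.22 without overlap. Kif11, the motor that pushes spindle poles apart, had 7.20 and 7.39 in the Ifnar1-/- group, next to 6.80 and 7.38 in the Ifnar1+/+ group, and its difference was -0.080 without Ifnar1+/+ array 1. Stmn1, which encodes the microtubule destabiliser stathmin, had 6.07 and 5.71 on the Ifnar1-/- arrays, against 5.23 and 6.20 on the Ifnar1+/+ arrays; it was not above background on Ifnar1+/+ array 1, and its difference was negative when Ifnar1-/- array 1 was left out and -0.31 without Ifnar1+/+ array 1. Hmmr, a spindle pole protein gene, was not well above background at either probe.

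Cytokinesis genes showed small separations. Kif23, the motor of the centralspindlin complex, had 9.58 and 9.54 on the Ifnar1-/- arrays, against 9.48 and 9.26 on the Ifnar1+/+ arrays. Prc1, which bundles microtubules of the central spindle, had 11.52 and 11.35 on the Ifnar1-/- arrays, compared with 11.28 and 11.25 on those of Ifnar1+/+. Neither overlapped, though the differences were 0.19 ± 0.23 and 0.17 ± 0.22 (SE), less than their standard errors. Ect2 and Kif20a, an activator of the GTPase RhoA and a motor that act at the division site, were not well above background, and Racgap1 had no probe.

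At its brightest probe, neither of the measured condensin subunit genes overlapped between the groups. Ncapd2, a condensin I subunit, had 9.95 and 9.29 on the Ifnar1-/- arrays, against 8.86 and 9.06 on the Ifnar1+/+ arrays, a difference of 0.66 ± 0.29 (SE, 1.58-fold; limma adjusted p = 0.53). This was the smallest adjusted p of the members, and the difference was 0.33 without Ifnar1-/- array 1. A dimmer kept probe of Ncapd2 had 7.08 and 5.91 on the Ifnar1-/- arrays, against 6.30 and 6.39 on the Ifnar1+/+ arrays. At that probe the groups overlapped, Ifnar1-/- array 2 was the lowest, and the difference was 0.15. Ncaph, the kleisin of condensin I, had 10.15 and 10.07 in the Ifnar1-/- group, next to 9.78 and 9.56 in the Ifnar1+/+ group. Its Ifnar1-/- arrays lay within 0.1 of each other, and the difference of 0.44 ± 0.23 (SE) was 0.42 without array 1. Top2a, the topoisomerase that untangles sister chromatids, had 9.99 and 9.55 on the Ifnar1-/- arrays, against 9.33 and 9.53 on the Ifnar1+/+ arrays, so that Ifnar1-/- array 2 and Ifnar1+/+ array 2 differed by 0.02 only. The condensin ATPase Smc2 was not well above background, and Smc4 and the proliferation marker Mki67 had no probe.

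The transcription factor Foxm1, which drives many of these genes in G2, had 7.99 and 7.74 on the Ifnar1-/- arrays, against 7.62 and 7.39 on the Ifnar1+/+ arrays. Its groups did not overlap, and its difference was 0.36 ± 0.24 (SE) at this probe and 0.19 at its other kept probe. Cdca3, an adaptor that triggers destruction of the Cdk1 inhibitor Wee1, had 11.53 and 10.89 on the Ifnar1-/- arrays, compared with 10.51 and 10.69 on those of Ifnar1+/+. Its difference of 0.62 ± 0.29 (SE) was among the 3 highest of the members and was 0.29 without Ifnar1-/- array 1, but the 2 kept probes of Cdca3 disagreed in direction. The dimmer one had 9.18 and 8.87 in the Ifnar1-/- group, next to 9.06 and 9.19 in the Ifnar1+/+ group, a difference of -0.10. Of the 5 members with more than 1 kept probe, Cdca3 was the only one whose probes disagreed in sign, and in each of the 5 the brightest probe had the highest difference.

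**Figure D3:**
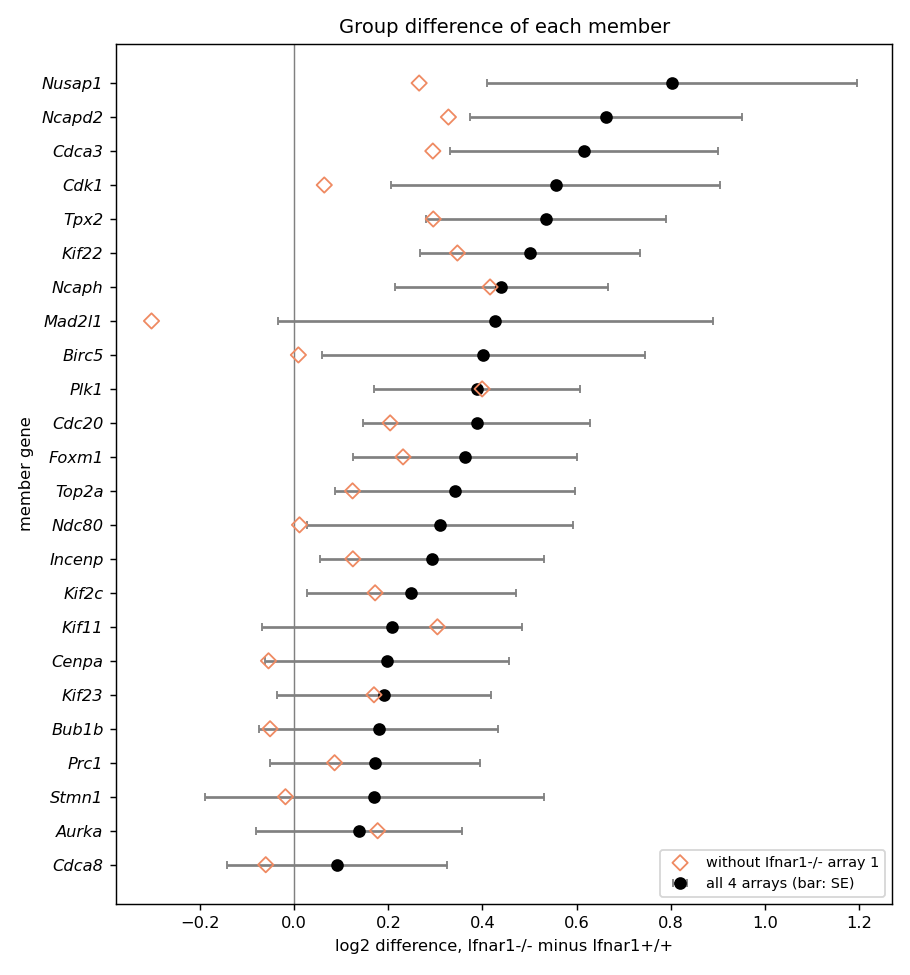
Log2 difference (Ifnar1-/- minus Ifnar1+/+) of each measured member with its standard error from all 4 arrays (filled circles), and the same difference without Ifnar1-/- array 1 (open diamonds). Plk1, Ncaph, Kif23 and Aurka keep their value without that array, while Mad2l1, Cenpa, Cdca8, Bub1b and Stmn1 fall below zero.

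The 12 members below background gave log2 intensities of 4.40 to 5.16 over 13 probes, with a smallest detection p of 0.0602 (Bub1 on Ifnar1-/- array 1), so no group difference is given for them. Of the 24 measured, 23 were above background on all 4 arrays and none entered through a single group.

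Other genes of the same processes, from lists chosen with earlier results of these data known, gave the following values, with 0 called in any list. Of 39 further mitotic genes measured, 34 had a higher and 5 a lower mean in Ifnar1-/-, with a median difference of 0.38, and both Ifnar1-/- arrays were above both Ifnar1+/+ arrays in 20 (51.3%, against 23.9% of all genes; 53.0% of all genes had a higher mean). Kif18a, a kinesin that dampens chromosome movements, was at least 1.23-fold higher in Ifnar1-/-, its Ifnar1+/+ signals being not well above background (limma adjusted p = 0.50). It was measured only through the Ifnar1-/- arrays. Of the other 38, 33 had a higher and 5 a lower mean, with a median of 0.36. Both Ifnar1-/- arrays were above both Ifnar1+/+ arrays in 19 of these 38, against 23.9% of all genes. Ncaph2, the kleisin of condensin II, had 9.83 and 9.75 on the Ifnar1-/- arrays, against 9.07 and 9.19 on the Ifnar1+/+ arrays, and Dlgap5, a spindle assembly protein gene, had 7.21 and 7.11 in Ifnar1-/- against 6.30 and 6.65 in Ifnar1+/+. Both therefore stood apart on each Ifnar1-/- array at the probe used, with differences of 0.66 ± 0.22 and 0.68 ± 0.24 (SE). Ncaph2 had 3 kept probes, and for it and all other genes of these lists only the brightest was read. The lowest of the list was Cdc25b, a phosphatase that activates Cdk1, at -0.14 ± 0.25.

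Subunits of the anaphase-promoting complex had a higher mean in 8 of 9 cases, against 53.0% of all genes, with a median of 0.45. Both Ifnar1-/- arrays lay above both Ifnar1+/+ arrays in 4 of the 9 (44.4%, against 23.9% of all genes). The median was 0.29 without background correction and with the deposited values, 0.31 without Ifnar1-/- array 1 and 0.28 without Ifnar1+/+ array 2. Anapc5 differed by 0.52 ± 0.23 (SE), Anapc7 by 0.54 ± 0.24, Anapc4 by 0.53 ± 0.26 and Anapc2, the cullin subunit, by -0.20 ± 0.37. The 7 cohesin genes had a median of 0.20, which was -0.052 without Ifnar1-/- array 1; Stag1 differed by 0.44 ± 0.25, Nipbl by 0.24 ± 0.26, Smc1a by 0.20 ± 0.22 and Esco2 by 0.08 ± 0.39. Replication genes of S phase had a higher mean in 18 of 18 (53.0% of all genes) and a median of 0.70, and both Ifnar1-/- arrays lay above both Ifnar1+/+ arrays in 15 (83.3%, against 23.9% of all genes). Among them the replicative helicase genes Mcm7, Mcm5 and Mcm6 differed by 0.78 ± 0.22, 0.82 ± 0.25 and 0.87 ± 0.27, and the flap endonuclease gene Fen1 by 0.40 ± 0.29. On Ifnar1-/- array 1 their median stood at 0.97, and on array 2 at 0.45. Whether the mitotic and replication lists differ from each other was not tested.

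Genes of G1 and of cell cycle arrest were mixed in direction. Of 14 G1 cyclins, Cdks and E2F-related genes, 8 had a higher and 6 a lower mean (median 0.10). E2f1, which opens S phase, had 8.73 and 8.87 on the Ifnar1-/- arrays, compared with 7.87 and 8.33 on those of Ifnar1+/+ (0.70 ± 0.25, SE). Mybl2, which encodes the B-Myb partner of the MuvB complex, had 9.77 and 8.79 in the Ifnar1-/- group, next to 8.23 and 8.73 in the Ifnar1+/+ group, Cdk2 differed by 0.79 ± 0.34, and the D-type cyclin gene Ccnd2 by -0.36 ± 0.24. Of 14 inhibitors and checkpoint brakes, 8 had a higher and 6 a lower mean (median 0.12, and -0.0625 with probes detected at p under 0.01 on all arrays). Chek1, a checkpoint kinase of S and G2, was at least 1.71-fold higher in Ifnar1-/-, with Ifnar1+/+ signals not well above background (limma adjusted p = 0.50). Of the other 13, 7 had a higher and 6 a lower mean, with a median of 0.039. The Cdk4/6 inhibitor gene Cdkn2b had 9.33 and 9.08 on the Ifnar1-/- arrays, against 9.85 and 9.96 on the Ifnar1+/+ arrays, a difference of -0.70 ± 0.23. Ccng2, a cyclin of resting cells, differed by -0.68 ± 0.24 and the stress gene Gadd45b by -0.71 ± 0.29. These 3 did not overlap between groups, but they were named for a small p or the lowest difference. Of the 14, 5 lay lower on both Ifnar1-/- arrays than on both Ifnar1+/+ arrays, against 19.5% of all genes. Another 5 of the 14, Chek1 among them, lay higher on both, against 23.9% of all genes.

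Markers of other cells also differed between the arrays. Of 9 absorptive enterocyte genes, 8 had a lower mean in Ifnar1-/-, and the 9 had a median of -1.28 on Ifnar1-/- array 1 but -0.28 on array 2. Their summed linear intensity was 61097 and 107074 on the Ifnar1-/- arrays, against 131415 and 116204 on the Ifnar1+/+ arrays; Fabp1 and Fabp2 were not detected on any array. The 6 measured T cell and intraepithelial lymphocyte markers were all lower on both Ifnar1-/- arrays, with medians of -1.65 and -1.01 and sums of 277 and 450 in Ifnar1-/- against 873 and 837 in Ifnar1+/+, while Ptprc, Cd2, Cd8a, Gzma and Gzmb were not detected. Among the 6, Cd3d was measured only through the Ifnar1+/+ arrays and was at least 1.71-fold lower in Ifnar1-/-. The other 5, also lower on both, had a median of -1.70 on Ifnar1-/- array 1 but -0.85 on array 2. Over all genes, 19.5% were lower on both. Of 7 crypt stem cell markers, 5 had a higher mean, with a median of -0.22 on Ifnar1-/- array 1 but 0.38 on array 2. The markers were split: 2 of the 7, Olfm4 and Lgr5, were higher on array 1 than on array 2. Olfm4 stood 1.91 above the Ifnar1+/+ mean on array 1 and 0.25 above it on array 2, and Lgr5 had 6.91 and 5.44 on these arrays. Rnf43, Sox9, Ascl2, Axin2 and Cd44 were lower on array 1 than on array 2. Lgr5 was measured only through the Ifnar1-/- arrays, whose mean was at least 1.81-fold higher (limma adjusted p = 0.52). That bound rests mostly on array 1, since Lgr5 on array 2 (5.44) was close to Ifnar1+/+ array 1 (5.27). The other 6 stem cell markers differed by -0.36 to 1.08, with medians of -0.37 on array 1 and 0.38 on array 2. The sums of the stem cell markers were 8586 and 9885 on the Ifnar1-/- arrays, compared with 7560 and 7031 on those of Ifnar1+/+. Of 5 fibroblast markers, 4 had a lower mean in Ifnar1-/-, with sums of 737 and 499 in Ifnar1-/- against 2809 and 751 in Ifnar1+/+, so that Ifnar1+/+ array 1 was the high one. Vim, among them, was measured only through the Ifnar1+/+ arrays, and the other 4 had sums of 705 and 475 in Ifnar1-/- against 2664 and 709 in Ifnar1+/+. Ifnar1-/- array 1, with the higher mitotic median, also had the lower enterocyte and T cell medians, and the part of cell composition in the members' differences was not tested.

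**Figure D4:**
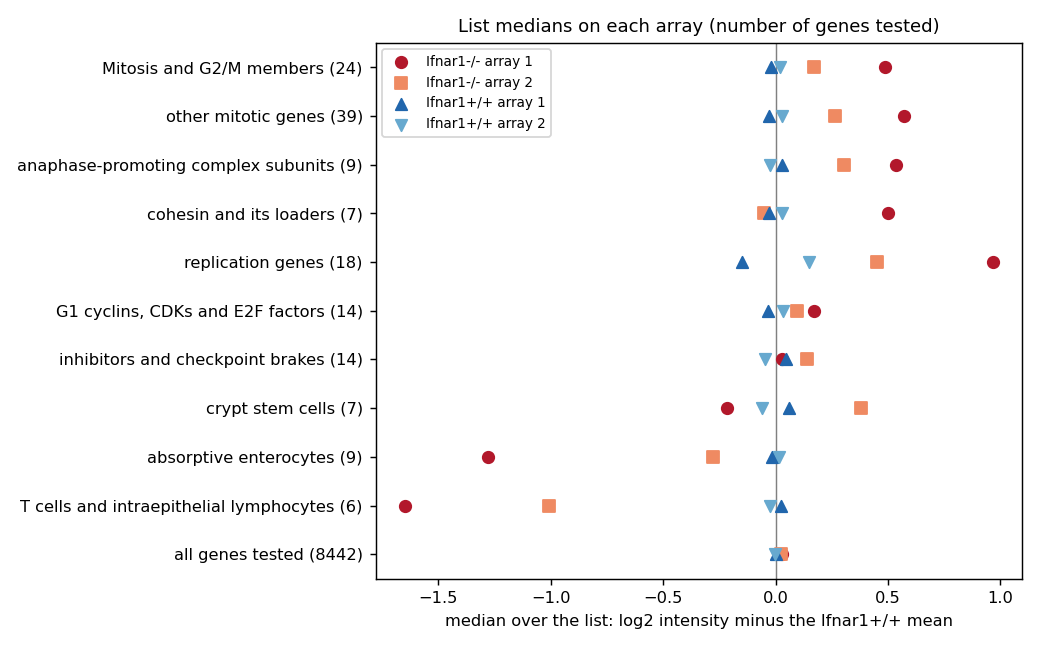
Median over each list of log2 intensity minus the Ifnar1+/+ mean, on each array, with the number of genes measured in brackets. Mitotic, anaphase-promoting complex and replication lists lie to the right on both Ifnar1-/- arrays and further on array 1 (0.49 for the members, 0.97 for replication genes), while enterocyte and T cell lists lie to the left.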

How the data were processed

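The deposited raw intensity values are bead signals per probe; the submitters' processing notes name GenomeStudio 1.8. That no background was subtracted and no scaling applied was inferred from the values (array medians differ and the lowest signals are far above 0). Detection p-values came in the same deposited table. The deposited normalized intensity values share 1 distribution over the arrays (93.1 to 57820.3) and served as an alternative. No source used here gives their scaling method.

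Raw intensities were background-corrected from the detection p-values, quantile normalized and log2 transformed (neqc, limma 3.58.1, R 4.3.3; offset 16, which pulls differences of dim genes toward 0). Kept were 11176 probes that had a gene symbol and passed detection (p under 0.05) on 2 arrays or more, and the brightest stood for each of 8442 genes. An "at least" fold compares the brighter group with the lowest signal above background. Groups were compared with lmFit and eBayes on all 4 arrays, two-sided, with no covariate (2 residual degrees of freedom, prior 4.54) and Benjamini-Hochberg adjustment over all genes. The fit was tested on simulated data. All members are named, with values on every array for the 3 of smallest p in each role and the 3 highest and 3 lowest differences (others were added), and, in each list of related genes, the 3 genes with the smallest p and those with the lowest and highest difference; members and lists were chosen with earlier results of these data known. Motifs were searched in RefSeq windows with Python 3.11.15, and figures drawn with matplotlib 3.10.9. Precision is limited by the number of arrays. The alternatives were other background, scaling, filter, probe, moderation and threshold choices, the replicate number as a block, and each array left out.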

Additional observations from a re-analysis of the deposited data

How the results depend on the processing

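Over 12 alternatives of processing and fit, the members' median log2 difference ranged from 0.21 (no filter on dim probes) to 0.45 (median scaling, which moved the median of all genes to 0.11), no member was called and no measured member turned. With no filter, 31 of 36 members had a higher and 5 a lower mean. Both Ifnar1-/- arrays lay above both Ifnar1+/+ arrays in 13 members with median scaling and with the mean of a gene's probes. The members' median was 0.24 without background correction and with the deposited values. With the replicate number as a block, although the numbers are shared by name only (correlation of same-numbered deviations -0.051), the median was 0.35 and 0 genes were called. Leaving out each array gave member medians of 0.17 to 0.48 (0.17 without Ifnar1-/- array 1), 0 to 3 genes called higher and 0 to 11 called lower over all genes, 3 and 11 without Ifnar1+/+ array 2 and 0 and 5 without Ifnar1+/+ array 1, none of them a member. The single array left in a group is then assumed to vary like the other group. The following changed sign when an array was left out, with the lowest and highest of the 4 values. Through Ifnar1-/- array 1 these were Mad2l1 (-0.303 to 1.15), Cdca8 (-0.0606 to 0.24), Cenpa (-0.0547 to 0.447), Bub1b (-0.0514 to 0.411), Cdc25b (-0.324 to 0.0471), Anapc2 (-0.699 to 0.308), and the medians of the checkpoint (-0.0514 to 0.576), kinetochore (-0.0218 to 0.527) and cohesin genes (-0.0523 to 0.501). Kif11 (-0.0803 to 0.496) changed without Ifnar1+/+ array 1, Stmn1 (-0.314 to 0.69) without that array (-0.314) or Ifnar1-/- array 1 (-0.0187), and Esco2 (-0.499 to 0.668) without Ifnar1-/- array 1 or without Ifnar1+/+ array 2 (-0.0385). With detection p under 0.01 on all arrays the median of the inhibitors was -0.0625. Apart from the arrays left out and the filters, the cause of these changes was not tested. Genes near background, such as Stmn1 and Kif18a, have differences pulled toward 0 by the offset.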
